A study of Saccharomyces cerevisiae with 3 samples.

Results

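The 8 genes described here encode the enzymes that move single carbons on tetrahydrofolate in budding yeast, Saccharomyces cerevisiae, and the specific subunits of the glycine cleavage system. They are SHM2, MTD1 and ADE3, whose products work in the cytosol, and SHM1, MIS1, GCV1, GCV2 and GCV3, whose products work in mitochondria. They were picked by name from the 6174 genes of the array table after their ratios on these arrays had been seen, so those ratios describe the genes and no test of them counts as support. All 8 have a row, matched by locus tag to RefSeq (assembly R64), and 7 have values. GCV2 has none on any array.

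Tetrahydrofolate carries single carbons for the synthesis of purines, thymidylate, methionine and formyl-methionyl-tRNA. Serine hydroxymethyltransferase, encoded by SHM2 in the cytosol and SHM1 in mitochondria, passes a carbon from serine to tetrahydrofolate and releases glycine. Glycine can in turn be split by the mitochondrial glycine cleavage system, which also charges tetrahydrofolate. In yeast the transcription factor Bas1, acting with Pho2, is known to drive the purine ADE genes and several of the genes described here, among them SHM2, MTD1 and GCV genes.

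The arrays compared RNA from a caspofungin-treated and an untreated part of one culture. The strain was BY4741 labelled WSC1extMID2cyt, a label built from WSC1 and MID2, which both encode cell surface sensors of wall stress. Both parts carried this genotype, grew in YEPD at 24 °C and were harvested 2 hours after one of them received 15 ng/ml of caspofungin, an inhibitor of beta-1,3-glucan synthesis. BY4741 is a MATa strain deleted for HIS3, LEU2, MET15 and URA3, a background that both parts share. The labels do not say how the WSC1extMID2cyt allele is carried or whether the strain is a single clone. Array 1 held the treated RNA in Cy3, and arrays 2 and 4 held it in Cy5. The stated design has 2 cultures and 4 arrays. Under it arrays 2 and 4, with the same dye orientation, stem from different cultures, and array 1 shares a culture with one of them.

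Each value is the logarithm of the ratio between both channels, taken here as log2, with the base, the centring and the direction not given in the sources used here. Positive and negative therefore name sides of the ratio as deposited, not more or less RNA with the drug. Whether the sign of the dye-swapped array 1 had been turned to match the other arrays is likewise not given. Over the 1863 genes measured on arrays 1 and 2, Pearson's r across genes was 0.58 and Spearman's rho was 0.47. Genes are not independent replicates. Because the turning of array 1 is not given, treatment and dye cannot be told apart in values that share a sign on arrays 1 and 2. Every side, count and rank below takes array 1 as deposited, and values with its sign turned stand beside some of them. Where no turned value is given, a side, count, rank, median or difference that uses array 1 still depends on that sign. On the positive side, the cell wall gene SED1 had 1.08 on array 1, 1.28 on array 2 and 1.15 on array 4. Its product is a structural mannoprotein, and its values do not set the direction of the ratio. Of the marker genes of the mating type, 0 of 4 MATalpha markers had a value, and of 6 MATa markers 3 had one. These 3 were negative wherever measured, as SHM2, MTD1, GCV1 and GCV3 were. Among all 1899 genes with at least 2 values, 45.9% were negative on every array, so such a side is common. STE2, the alpha-factor receptor gene, had -0.88, -1.32 and -0.18 on arrays 1, 2 and 4, BAR1, a pheromone protease gene, had -0.96 on array 1 and -1.51 on array 2, and MFA2, a pheromone gene, had -1.23 on array 2. Their part in the results below was not tested. Of the loci deleted in BY4741, MET15 (MET17 in RefSeq) and URA3 had no value. HIS3 had -0.31 on array 1 and 0.19 on array 2, and LEU2 had -0.63 and 0.39, so these spots gave a ratio on both arrays and the ratio changed side. Whether a marker on the WSC1extMID2cyt construct restores either gene was not tested.

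SHM2, MTD1, GCV1 and GCV3 lay far on the negative side, ADE3 and SHM1 lay near 0, and MIS1 lay on the positive side. Among the 7 measured genes, 5 were negative and 1 was positive on every array with a value. Of all 1899 genes with at least 2 values, 45.9% were negative and 18.5% were positive on every array, and 64.4% kept one sign. The median of the 7 mean log2 ratios was -1.18, which is the value of GCV3, against -0.19 over all 1899 genes. With array 1 turned, 1 of the 7 kept one sign and their median was -0.12. The mean was then -0.71 for SHM2, -0.51 for MTD1, 0.05 for SHM1, 0.37 for MIS1 and -0.12 for GCV3. The plot of every value shows that the 7 genes did not form one block.

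**Figure D1:**
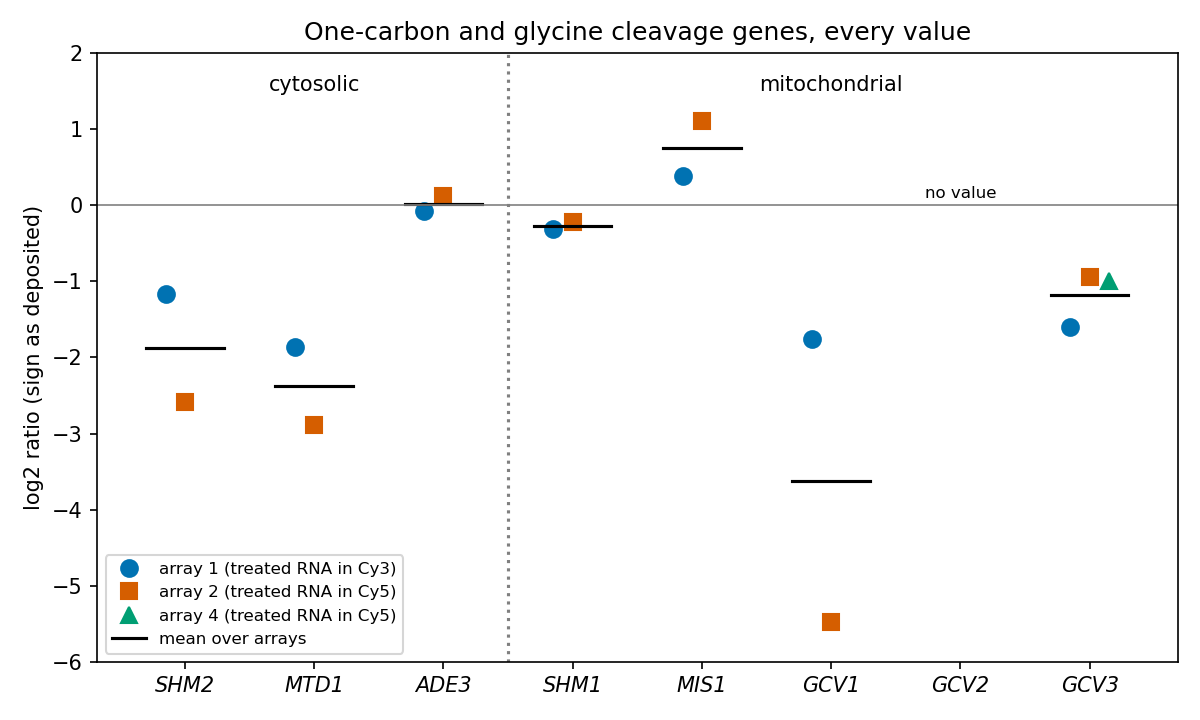
Log2 ratios of the 8 genes on each array, with the sign as deposited. Points are single arrays, black bars are means over the arrays with a value, and a dotted line separates cytosolic from mitochondrial enzymes. GCV1 on array 2 lies lowest at -5.48, MIS1 lies above 0 on both its arrays, and GCV3 alone has a point from array 4.

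In the cytosol, SHM2 (YLR058C) had a log2 ratio of -1.17 on array 1 and -2.58 on array 2. Counted from the lowest value it ranked 32 of 2520 on array 1 and 16 of 1924 on array 2. Its mean was -1.87 ± 1.00 (SD, n = 2 arrays), a ratio of 3.66-fold. MTD1 (YKR080W) encodes the NAD-dependent dehydrogenase that oxidises methylene-tetrahydrofolate. Its log2 ratio was -1.86 on array 1 and -2.89 on array 2, ranks 5 and 13 from the lowest. The mean was -2.37 ± 0.73 (SD, n = 2 arrays), a ratio of 5.19-fold. ADE3 (YGR204W) encodes the trifunctional synthase that interconverts methylene-, methenyl- and formyl-tetrahydrofolate and also activates formate. It had -0.08 on array 1 and 0.12 on array 2, with a mean of 0.02 ± 0.14 (SD, n = 2 arrays). Its values lay on both sides of 0, so among the cytosolic enzymes SHM2 and MTD1 stood on the negative side on both arrays and ADE3 did not.

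In mitochondria, the 2 glycine cleavage genes with values were the lowest. GCV1 (YDR019C) encodes the T protein, an aminomethyltransferase that hands the carbon of glycine to tetrahydrofolate. Its log2 ratio was -1.75 on array 1 and -5.48 on array 2, ranks 8 and 2 from the lowest. These correspond to 3.37-fold and 44.6-fold, so the sign was shared and the size was not. The mean of -3.62 ± 2.64 (SD, n = 2 arrays) was the lowest of the 1863 genes measured on arrays 1 and 2. With array 1 turned it was -1.86, the rank was 5, and FUN30, a chromatin remodeller gene, was lowest at -3.73. The gap between its values, 3.73 on the log2 scale, exceeded that of 99.7% of those genes, whose median gap was 0.32.

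Deep negative values on array 2 had either sign on array 1. Among the 10 lowest genes on array 2 that array 1 also measured, 6 were positive on array 1 and 3 were at least 2-fold negative there. Those 3 were GCV1, MTD1 and ADE17, the last a purine synthesis gene described below. The 10 genes were picked by their array 2 values, and the same counts were not taken over all genes. Over the 1863 genes measured on both arrays, the median on array 1 was -0.16. FUN30 had -5.90 on array 2 and 1.56 on array 1. With array 1 turned, 4 of the 10 were positive there and 2, FUN30 and SCO1, were at least 2-fold negative, while GCV1, MTD1 and ADE17 were not. Spot brightness was not analysed here, so its part in GCV1's value on array 2 was not tested.

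GCV3 (YAL044C) encodes the H protein, the lipoylated carrier that shuttles the aminomethyl group between the other subunits. It was the single gene of the group measured on all 3 arrays, where it had -1.60 (array 1), -0.94 (array 2) and -1.002 (array 4). The 3 ratios were negative and spanned 0.65 on the log2 scale. The mean was -1.18 ± 0.36 (SD, n = 3 arrays), a ratio of 2.27-fold. Within an array it ranked 13 of 2520 from the lowest on array 1, 185 of 1924 on array 2 and 103 of 741 on array 4. GCV2 (YMR189W) encodes the P protein, the glycine decarboxylase, and has no ratio. LPD1, the gene of the L protein that this system shares with pyruvate and 2-oxoglutarate dehydrogenase, had 0.15 on array 1 and -0.46 on array 2, on both sides of 0.

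SHM1 (YBR263W), the mitochondrial serine hydroxymethyltransferase gene, had -0.32 on array 1 and -0.22 on array 2. Its mean of -0.27 ± 0.07 (SD, n = 2 arrays) was near the median of all genes. MIS1 (YBR084W) encodes the mitochondrial counterpart of the ADE3 enzyme. It had 0.38 on array 1 and 1.11 on array 2, with a mean of 0.75 ± 0.52 (SD, n = 2 arrays), a ratio of 1.68-fold. It was the one gene of the group on the positive side of both arrays.

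The split between compartments did not follow these differences. On array 1 the median log2 ratio was -0.96 over 4 mitochondrial genes and -1.17 over 3 cytosolic genes, a difference of 0.21. On array 2 the medians were -0.58 and -2.58, a difference of 2.00 from the same genes. The mitochondrial range ran from -1.75 to 0.38 on array 1 and from -5.48 to 1.11 on array 2. The cytosolic range was -1.86 to -0.08 on array 1 and -2.89 to 0.12 on array 2, so the groups overlapped on both arrays. Array 4 measured 1 mitochondrial and 0 cytosolic genes and allowed no comparison. Over the means of genes with at least 2 values, the mitochondrial median exceeded the cytosolic median by 1.15 on the log2 scale. The spread of that difference between arrays 1 and 2 was 1.26 (SD), larger than the difference itself.

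Between the isozyme pairs, the cytosolic gene was the lower one on both arrays as deposited, and with array 1 turned it was the higher one there. The SHM2 log2 ratio minus that of SHM1 was -0.85 on array 1 (0.85 if turned) and -2.36 on array 2. ADE3 minus MIS1 was -0.46 on array 1 (0.46 if turned) and -0.99 on array 2. Within the cytosol, MTD1 minus ADE3 was -1.78 on array 1 and -3.01 on array 2. MTD1 and ADE3 thus differed by more than the members of either isozyme pair did on the same array. SHM2 minus MTD1, also within the cytosol, was 0.69 on array 1 and 0.31 on array 2. That was less than SHM2 and SHM1 differed on either array. Within mitochondria, GCV1 minus SHM1 was -1.43 on array 1 and -5.26 on array 2, and GCV1 minus GCV3 was -0.16 and -4.54. The proteins of each isozyme pair are homologous and probe sequences were not used here. How far one gene's spot also captured RNA of its counterpart was thus not tested.

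**Figure D2:**
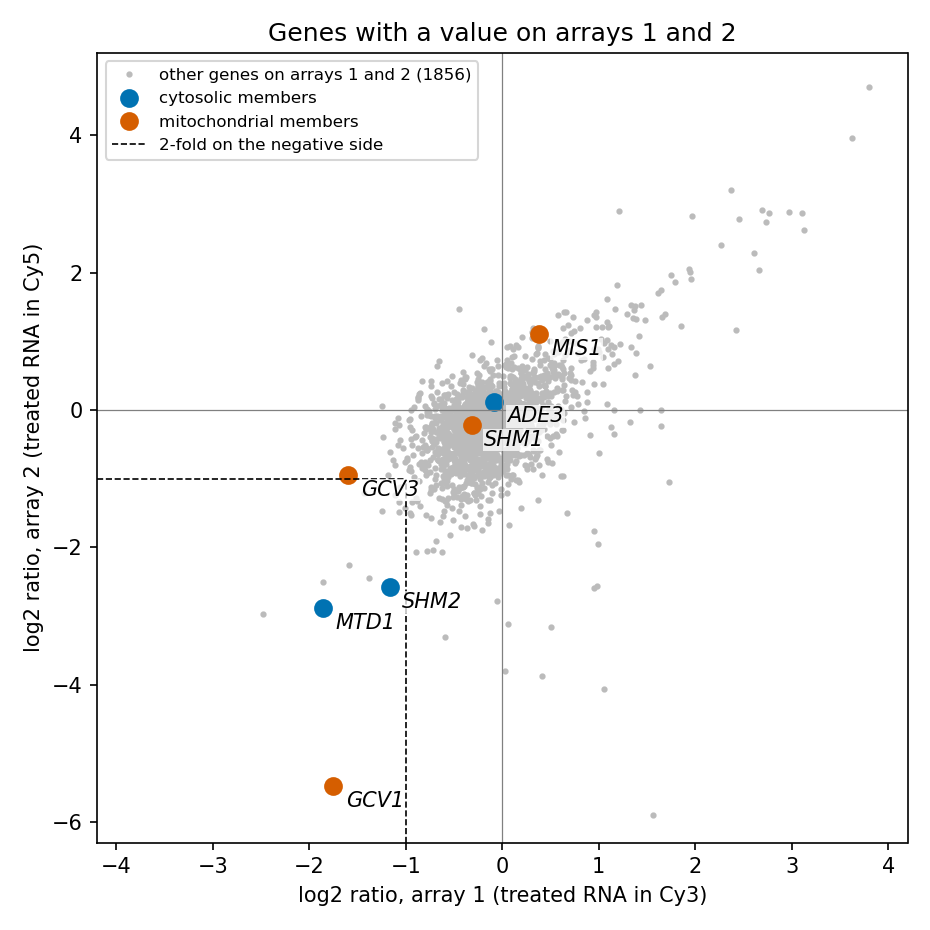
Log2 ratios of the 1863 genes measured on arrays 1 and 2, with the sign as deposited, and the 7 measured genes coloured by compartment. Dashed lines mark 2-fold on the negative side. MTD1, SHM2 and GCV1 lie within that corner, GCV3 lies at its edge, and ADE3, SHM1 and MIS1 lie in or near the main cloud.

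A ratio of at least 2-fold on the negative side of both arrays 1 and 2 was reached by 3 of the 7 genes, GCV1, MTD1 and SHM2. Of all 1863 genes, 14 (0.751%) reached it, and 44 (2.36%) did so on the positive side, where none of the 7 genes was found. With array 1 turned, 0 of the 7 and 3 of the 1863 genes (0.161%) reached it on the negative side, and 0 genes on the positive side. A gene past this size on both arrays as deposited has opposite signs once array 1 is turned. The outcome for GCV1, MTD1 and SHM2 was thus fixed in advance. GCV3 missed the size on array 2, at -0.94. Since the genes were chosen with these ratios known, the count describes where they lie and is not evidence about them. The other 11 genes at this size, named after their values were seen, included the purine synthesis genes ADE17, ADE1 and ADE4. The remaining 8 were OLE1, PTR2, YBR089W, SCW11, RCL1, YAR073W, FUR1 and IMD2. OLE1 encodes the fatty acid desaturase, PTR2 a peptide transporter, FUR1 uracil phosphoribosyltransferase and IMD2 an IMP dehydrogenase of the guanine nucleotide branch. YAR073W belongs to the IMD family, and near-identical members of that family may share signal.

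Values certain to span both cultures of the stated design were available for GCV3 alone. The limma test, with array 1 averaged with array 2 or with array 4 and the larger p kept, called 0 of 585 genes (0%) after Benjamini-Hochberg adjustment. At an unadjusted p under 0.05 it held 67 genes (11.5%), with GCV3 among those on the negative side (6.67% of genes), and a one-sample test without moderation also called 0. Each pairing left the limma fit 1 residual degree of freedom. Moderation added 4.96 with arrays 1 and 2 averaged and 2.7 with arrays 1 and 4 averaged. A count of 0 on so few does not show that no ratio differed from 0. The limma adjusted p of GCV3 was 0.285 (negative on 3 of 3 arrays), and its range over the 11 alternatives tried was 0.0027 to 0.994. The lowest came from arrays 1 and 2 alone and the highest from turning array 1. The next highest limma adjusted p was 0.763, without array 2. Array 4 held a value for 31.4% of the 1863 genes on arrays 1 and 2 and for 1 of the 7 described here. When limma took each array as a replicate and genes with at least 2 values, 48 of 1899 genes passed (2.53%), with 14 on the negative side (0.737%). Of the 7 genes MTD1 and GCV3 were among them. On arrays 1 and 2 alone 209 of 1863 genes passed (11.2%), 120 on the negative side (6.44%), and the latter included SHM2, MTD1, GCV1 and GCV3. Array 1 shares a culture with array 2 or array 4 under the stated design. In the fit of genes with at least 2 values, genes with 3 values, GCV3 among them, thus had 2 arrays from one culture. Their p-values there are too small. If arrays 1 and 2 share a culture, so are those of genes measured on these alone, and all those of the second fit. If arrays 1 and 4 share one, so are those of genes measured on these alone. With array 1 turned, 0 of 1899 and 2 of 1863 genes passed these fits (31 and 14 at an unadjusted p under 0.05), and 0 of the 7 genes did.

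The genes whose values over the 3 arrays were closest to those of GCV3, by Euclidean distance in log2 ratio among 584 others, were MYG1, UTP11 and ATO3. Their distances were 0.79, 0.82 and 0.86, against a median distance of 2.08. MYG1 had -0.94 on array 1, -1.35 on array 2 and -1.17 on array 4, so it was less negative than GCV3 on array 1 and more negative on the others. UTP11, a gene of the small subunit processome, had -0.80, -0.94 and -1.18, and ATO3, a gene of a putative ammonium transporter, had -0.89, -1.29 and -1.36 on arrays 1, 2 and 4. Over 3 arrays such a likeness says little.

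Genes next to the 8 on the chromosomes gave few values. Of 16 neighbouring protein-coding genes in RefSeq, 2 had a value on at least 2 arrays, and neither was 2-fold negative on arrays 1 and 2. REX2, beside SHM2, had -0.67 on array 1 and 0.27 on array 2. RPF2, a ribosome assembly gene beside MTD1, had -0.43 on array 1 and -1.30 on array 2.

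Of the 39 genes on the other lists of the pathway, 22 had at least 2 values. Of these, 13 were negative (59.1%), 4 were positive (18.2%) and 5 lay on both sides of 0. Over all 1899 genes with at least 2 values, 45.9% were negative and 18.5% were positive on every array. The median of means over the 22 genes was -0.43, and 0 of the 5 tested on all 3 arrays passed the limma test in either direction (0%). At an unadjusted p under 0.05 there were 2, ADE12 and ADE13. The lists differed from each other, as the plot of the pathway genes shows.

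**Figure D3:**
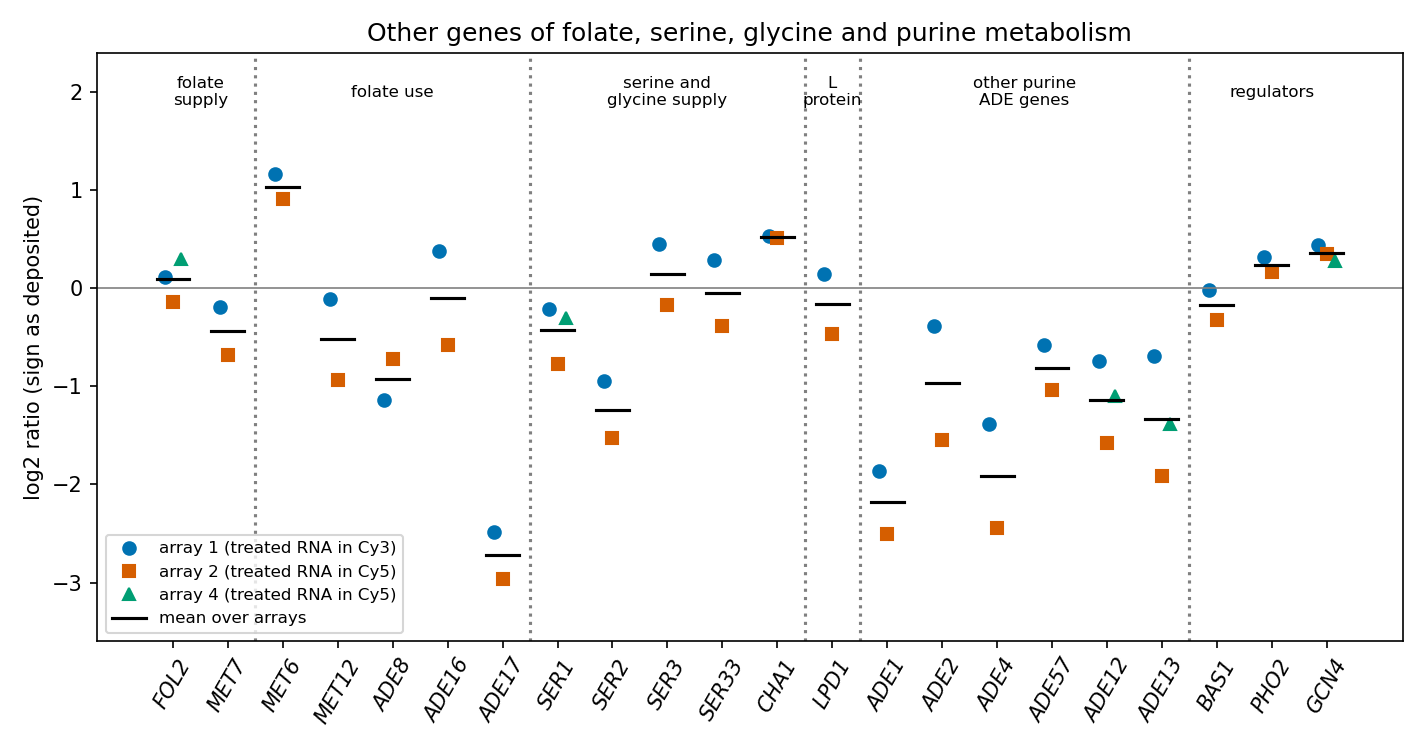
Log2 ratios of the other folate, serine, glycine and purine genes with a value on at least 2 arrays, with the sign as deposited. Points are single arrays and black bars are means. The 6 purine ADE genes without a folate step and ADE17 lie below 0 on every array, and MET6 lies above 0. Values of the 3 regulators run from -0.32 for BAS1 to 0.44 for GCN4.

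Among genes that use folate-bound carbon, the median of 5 measured genes was -0.52, with 3 negative, 1 positive and 1 on both sides. ADE17, whose enzyme adds the second formyl group to the purine ring, had -2.48 on array 1 and -2.97 on array 2, a mean of -2.72 ± 0.34 (SD, n = 2 arrays). Its isozyme gene ADE16 had 0.38 on array 1 and -0.58 on array 2, on both sides of 0. ADE8, whose enzyme adds the first formyl group, had -1.14 on array 1 and -0.72 on array 2. MET6, the methionine synthase gene, was the positive one, with 1.16 on array 1 and 0.92 on array 2. MET12, a methylene-tetrahydrofolate reductase gene, had -0.11 on array 1 and -0.94 on array 2. CDC21 (thymidylate synthase), MET13 and FMT1 had no value.

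Folate supply was covered thinly, with 2 of 8 genes on at least 2 arrays and a median of -0.17. FOL2, the GTP cyclohydrolase gene at the start of folate synthesis, had 0.12 on array 1, -0.14 on array 2 and 0.30 on array 4. MET7, which encodes folylpolyglutamate synthase, had -0.19 on array 1 and -0.68 on array 2. On array 4 alone DFR1, the dihydrofolate reductase gene, had 0.71, and FAU1, the gene of a folinate-recycling enzyme, had -1.21.

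Serine and glycine supply was mixed, with a median of -0.04 over 5 of 8 genes. SER2, the gene of the last enzyme of serine synthesis from glycolytic intermediates, had -0.95 on array 1 and -1.53 on array 2, a mean of -1.24 ± 0.41 (SD, n = 2 arrays). SER1, which acts just before it, had -0.21 on array 1, -0.77 on array 2 and -0.30 on array 4. SER3 and SER33, paralogous genes of the first step that may share signal, were positive on array 1 and negative on array 2. CHA1, which encodes a serine deaminase, had 0.54 on array 1 and 0.51 on array 2. GLY1 and AGX1, whose enzymes make glycine from threonine and from glyoxylate, had no value.

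The purine ADE genes without a folate step were negative on every array for all 6 measured members. The same held for 45.9% of all 1899 genes with at least 2 values. The median of the 6 was -1.23, with means from -2.18 for ADE1 to -0.81 for ADE57 (the bifunctional ADE5,7 gene). ADE12 had -0.74, -1.58 and -1.10 and ADE13 had -0.69, -1.91 and -1.38 on arrays 1, 2 and 4, so these genes and GCV3 had one sign across the dye orientations as deposited. With array 1 turned, the 6 genes had opposite signs on arrays 1 and 2, and the list's median was -0.55. Of the regulator genes, PHO2 and GCN4 were positive and BAS1 was negative on every array with a value. BAS1 had -0.02 on array 1 and -0.32 on array 2, and PHO2 had 0.32 on array 1 and 0.17 on array 2. GCN4, the gene of the amino acid starvation regulator, had 0.44, 0.35 and 0.28 on arrays 1, 2 and 4, with a limma adjusted p of 0.642.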

How the data were processed

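The authors deposited a log ratio of both channels for each row and array, read here as log2. Its base, centring, direction, spot filter, scanner and normalization were not given in the sources used here. The table has 6209 rows: 5654 were matched by locus tag and 57 by synonym to RefSeq (R64), and 498 kept their name. Averaging rows of one gene gave 6174 genes. Values were present for 2520, 1924 and 741 rows on arrays 1, 2 and 4, and depth is not defined for arrays, so precision is limited by their number. Departure of the ratio from 0 was tested by limma's lmFit and eBayes (limma 3.58.1 under R 4.3.3) over the 585 genes with 3 values, as described in the text, with a threshold of 0.05 after Benjamini-Hochberg adjustment, and the script was tested on simulated data. Labels name 2 cultures but not which array came from which, so part of the spread may be technical. Members and lists were chosen with earlier results of these data known. All 8 members, list genes with at least 2 values and the 3 genes closest to each member with 3 values were named by rule, as were the loci deleted in BY4741. SED1, FUN30, SCO1, the neighbouring genes, list genes with 1 value or none and the genes past 2-fold were named after their values were seen. Promoter motifs were planned but not analysed here. Alternatives were culture pairing, centring, scaling, moderation, missing values, the sign of array 1 and leaving out 1 array.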

Additional observations from a re-analysis of the deposited data

How the results depend on the processing

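The count of genes past the threshold was 0 for each culture pairing alone, with array 1 turned (chosen after seeing the data), after centring and without moderation, 2 with 3 separate arrays, 1 after scaling, 48 with genes on at least 2 arrays, and 0 to 209 with 1 array left out (17 without array 1, 0 without array 2, 209 without array 4). The last counts rest on fewer arrays and, without array 4, on more genes. Turning the sign of array 1 brought the median of the 7 genes from -1.18 to -0.12 and the count with one sign from 6 to 1, because values that share a sign then cancel. It moved the means of SHM2, MTD1, SHM1 and GCV3 by more than their spread between arrays, as centring did for SHM1 (-0.27 to -0.13). The turned counts of 2-fold genes, rank of GCV1, tally of array 2's lowest genes, isozyme differences and limma fits were also chosen after seeing the data. The same turn gave -0.55 for the other purine ADE genes and -0.075 for the regulators. Limiting the genes to those with 3 values left 1 with one sign, GCV3, and gave -0.43 for serine and glycine supply (SER1 alone) and 0.36 for the regulators (GCN4 alone). Centring gave 0.38 for the regulators and put ADE3 on one side, so that all 7 genes had one sign. Leaving out 1 array gave -1.30 to -0.97 for the median of the 7 genes, 1 to 6 for the count with one sign, -0.22 to 0.21 for folate supply, -0.54 to -0.044 for serine and glycine supply, and 0.24 to 0.36 for the regulators. Without array 1 or array 2, GCV3 was the single gene of the 7 with 2 values, and the compartments could not be compared. The difference between compartments was 0.48 with array 1 turned and 1.10 to 1.19 under the other alternatives that moved it. No paired analysis was possible because the arrays form 1 group. The small number of arrays, and array 4's coverage of 11.9% of rows, limit every statement.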
